A study of Mus musculus with 13 samples.

Results

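A set of 6 mouse genes was followed through every library: Hsd11b1, which makes active glucocorticoid inside cells, Nr3c1, which encodes the glucocorticoid receptor, and the receptor's classical targets Fkbp5, Tsc22d3, Per1 and Sgk1. They were taken by symbol from the 23211 genes of the count matrix, and all 6 were among the 13294 genes that passed the filter on low counts. They were chosen by measured values of these data already known: Hsd11b1 for its fibrous against bone fold change, with the receptor and its targets added by role. The levels of the 6 genes in that comparison are therefore given as a description, with no test.

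By their labels, the libraries hold polyA RNA of cells sorted by flow cytometry for the leptin receptor, a surface protein of marrow stromal cells. The cells came from tissue around implants in the mouse tibia. The labels assign 7 libraries to fibrous tissue (implant name PMMA) and 6 to bone (implant name Pressfit). The library names fall into the series XY9274 (2 fibrous, 2 bone) and L002 (5 fibrous, 4 bone), and within L002 3 names hold the token Lin (fibrous 5, bone 3 and bone 4), 5 hold the token plus (fibrous 2, 3 and 4, bone 1 and bone 2) and that of fibrous 1 holds neither. In the names of fibrous 2, 3 and 4 and bone 2 the token plus follows LepR, and in that of bone 1 it does not. The XY9274 names hold Lepr.Pos, whereas the 3 Lin names and that of fibrous 1 hold no LepR. Most names thus read as a sort positive for the receptor, and the Lin names do not. The labels do not define these tokens, and give no strain, age, genotype or time after surgery. They also do not say that libraries came from separate animals, so the p-values reflect only variation from library to library, which may be technical.

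Glucocorticoids circulate in active and inactive forms. The enzyme 11β-hydroxysteroid dehydrogenase type 1, the product of Hsd11b1, turns the inactive keto form back into the active hormone within the cell, and uses NADPH that H6pd supplies in the endoplasmic reticulum, whereas the product of Hsd11b2 does the reverse. Bound hormone releases the receptor from its chaperone complex and sends it to the nucleus, where it binds DNA and induces genes such as Fkbp5, Tsc22d3, Per1 and Sgk1. In bone, excess glucocorticoid is known to restrain osteoblasts.

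Total counts ran from 18056208 to 44302166 in fibrous and from 16162321 to 43217004 in bone libraries, and 14644 to 20146 genes were detected per library. Levels are given as normalised CPM, edgeR's counts scaled to a common library size after TMM correction. Lepr, the gene of the sort marker, lay under 5 CPM in 5 libraries (fibrous 1, fibrous 5, bone 3, bone 4 and bone 5), among them all 3 with Lin in their names, and between 46.7 and 804 CPM in the other 8. The labelled cell type was thus not borne out by its defining gene in those 5 libraries, and values without them are given where they matter. In bulk RNA, fewer cells of a type and less RNA per cell cannot be told apart.

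Promoter sequence was available from the RefSeq table (GRCm38.p6) for 5 of the 6 genes, as 13 windows that run from 250 bases before to 50 bases after an annotated start. They were searched on both strands for the receptor's palindromic site (AGAACANNNTGTTC), the E-box bound by clock factors (CACGTG) and the core of the cyclic AMP response element (TGACGTC). The palindrome occurred in 16 of 32851 mouse promoter windows (0.0487%), the E-box in 2349 (7.15%) and the cyclic AMP element in 1053 (3.21%). The windows with a match at Sgk1 and Per1 are printed because these targets carry the named elements next to annotated starts, in capitals. The first lies at chr10:21993640-21993939, plus strand, and its palindrome, read as overlapping matches on the 2 strands, begins 189 bases before the start. The second, at chr11:69098699-69098998, plus strand, has its E-box 166 bases before the start, and the third, at chr11:69099902-69100201, plus strand, has its cyclic AMP element 132 bases before the start.
Sgk1, receptor palindrome: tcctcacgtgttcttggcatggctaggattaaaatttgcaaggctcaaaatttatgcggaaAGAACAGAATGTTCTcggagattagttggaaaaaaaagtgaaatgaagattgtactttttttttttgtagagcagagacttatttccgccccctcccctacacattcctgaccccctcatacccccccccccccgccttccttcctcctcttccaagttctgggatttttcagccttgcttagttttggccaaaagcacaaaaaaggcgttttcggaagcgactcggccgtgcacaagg
Per1, E-box: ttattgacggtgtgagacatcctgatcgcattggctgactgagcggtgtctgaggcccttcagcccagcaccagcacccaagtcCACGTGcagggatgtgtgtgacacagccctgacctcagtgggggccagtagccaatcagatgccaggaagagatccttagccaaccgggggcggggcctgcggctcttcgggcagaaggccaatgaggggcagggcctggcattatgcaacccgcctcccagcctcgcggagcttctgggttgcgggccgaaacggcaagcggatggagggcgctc
Per1, cyclic AMP element: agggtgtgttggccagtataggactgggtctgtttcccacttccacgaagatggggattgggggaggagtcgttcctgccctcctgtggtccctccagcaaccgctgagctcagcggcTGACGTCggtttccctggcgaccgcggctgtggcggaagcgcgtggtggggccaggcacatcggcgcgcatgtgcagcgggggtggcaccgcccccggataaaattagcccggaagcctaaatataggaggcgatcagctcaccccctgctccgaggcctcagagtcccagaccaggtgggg
Of the other windows, that of Fkbp5 held an E-box 169 bases before its start, and the printed Sgk1 window also held one 246 bases before its start. The single Hsd11b1 window (chr1:193242311-193242610, minus strand), the 3 windows of Tsc22d3 and the other 5 of Sgk1 held none of the 3 motifs. A match says only that these letters are present, and its absence only that they are not in that window.

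**Figure D1:**
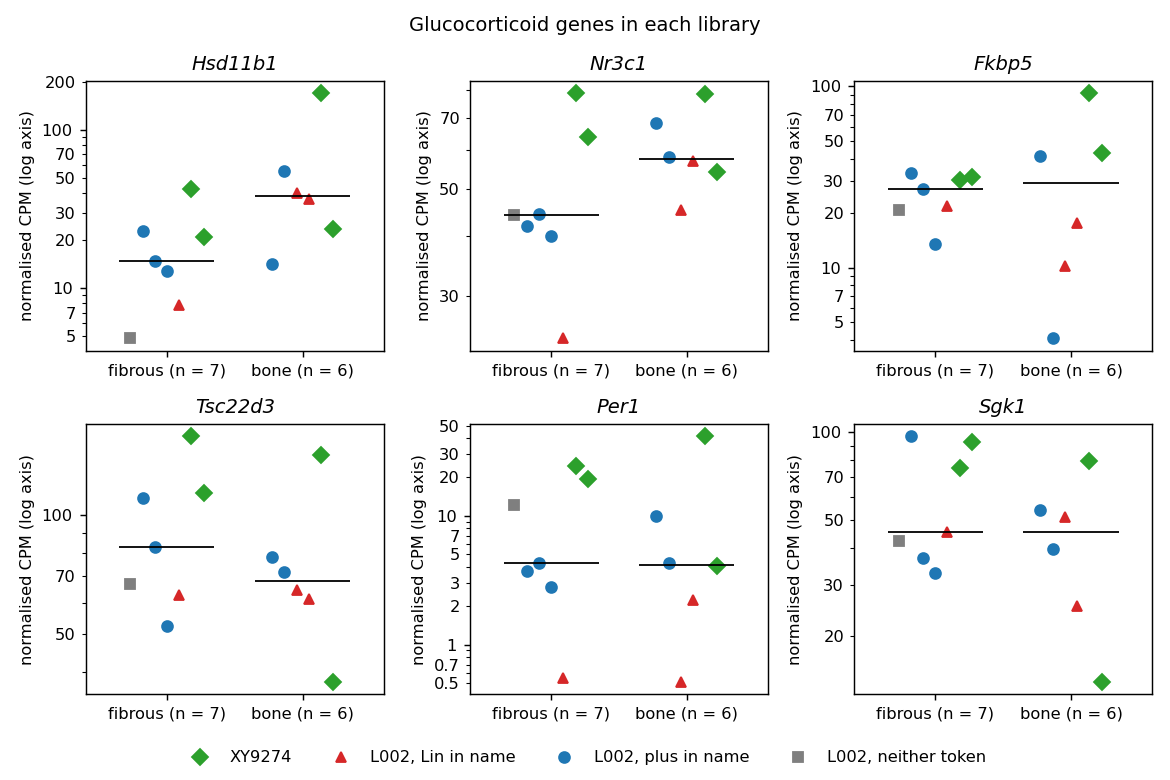
Normalised CPM (log axis) of the 6 genes in each library, fibrous (n = 7) left of bone (n = 6). Symbols give the library name series and token, and horizontal lines are group medians. Hsd11b1 spans 4.80 to 42.5 CPM in fibrous and 14.2 to 170 CPM in bone libraries, and the groups overlap for every gene shown.

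Tsc22d3, which encodes the anti-inflammatory leucine zipper protein GILZ, was the most abundant of the set per kilobase of annotated exon. Per kilobase of exon, its median over the 13 libraries was 16.5 CPM, followed by Sgk1 at 9.28, Nr3c1 at 7.04, Hsd11b1 at 5.39, Fkbp5 at 2.88 and Per1 at 0.764 CPM per kb. Tsc22d3 exceeded Sgk1 in 13 of 13 libraries, Sgk1 exceeded Nr3c1 in 11, Nr3c1 exceeded Hsd11b1 in 9, Hsd11b1 exceeded Fkbp5 in 10 and Fkbp5 exceeded Per1 in 10. The order of Nr3c1 and Hsd11b1 was the least regular, since Hsd11b1 ranged from 1.13 to 40.1 and Nr3c1 only from 3.20 to 10.2 CPM per kb. Exon length here counts every base in any annotated exon of a gene, over all its transcripts. It can exceed the length of the transcripts present, so the order depends on the annotation.

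The genes also differed in how much they varied. The receptor gene was the steadiest, with a ratio of highest to lowest library of 3.20 and an SD of 0.46 in log2 CPM, a smaller SD than most genes have (14.9% of the 13294 had a smaller one). Tsc22d3 followed with a ratio of 4.20 (SD 0.59) and Sgk1 with 6.90 (SD 0.78). Fkbp5 had a ratio of 22.6 (SD 1.10), Hsd11b1 35.5 (SD 1.32) and Per1 79.8 (SD 1.87), where the median SD over all genes was 1.05. Counting error was not the limit for 5 of the 6 genes, whose lowest count in any library was 98. Per1 fell to 8 counts in bone 3 and 9 in fibrous 5.

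Hsd11b1 (ENSMUSG00000016194, chr1:193221634-193264075, minus strand, GRCm38) was the gene of the set with the clearest offset between the tissues. Its level was 4.80, 22.9, 14.8, 12.9, 7.82, 42.5 and 20.9 CPM in fibrous 1 to 7, against 14.2, 55.4, 40.0, 36.6, 170 and 23.7 CPM in bone 1 to 6. The fibrous mean was 18.1 ± 12.6 CPM and the bone mean 56.7 ± 57.4 CPM (SD, n = 7 and 6), and the ranges overlapped between 14.2 and 42.5 CPM. The tissues overlapped for all 6 genes, as they did for nearly every gene (0.015% lower and 0.0527% higher in fibrous without overlap). Bone 5 held much of the bone mean, which was 34.0 ± 15.8 CPM without it (SD, n = 5). The fitted log2 fold change, fibrous minus bone, was -1.55 (SE 0.49), with -1.57 within L002 and -1.69 within XY9274. Hsd11b1 was chosen on this fold change, so its size against the SE and its sign across settings are a description, not a test.

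That offset became smaller when libraries poor in the sort marker were set aside. Without the 5 libraries under 5 CPM of Lepr it was -0.53 (SE 0.55), and with erythroid and leukocyte scores in the fit it was -0.86 (SE 0.38). Over 23 alternative settings it stayed below 0 and ran from -1.78 to -0.53. Leaving out single libraries gave -1.78 to -1.16.

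White blood cell markers moved with Hsd11b1 across libraries. The 5 libraries highest in Hsd11b1 (bone 5, bone 2, fibrous 6, bone 3 and bone 4) were also the 5 highest for the summed levels of 12 monocyte and macrophage markers, of 12 neutrophil markers and of 12 general leukocyte markers. For the 13 marrow stromal markers they shared 1 of 5. The macrophage sum ran from 209 to 3163 CPM in fibrous and from 309 to 11690 CPM in bone libraries, the neutrophil sum from 658 to 23209 and from 1508 to 92888 CPM, and the leukocyte sum from 251 to 2765 and from 301 to 9626 CPM. Spearman coefficients of Hsd11b1 with these sums over the 13 libraries were 0.89, 0.87 and 0.87, against -0.10 with the stromal sum, as a description of libraries that share depth and cell content. In the fibrous minus bone fit, 12 of 12 leukocyte and 12 of 12 neutrophil markers had point estimates below 0 (medians -1.54 and -1.80), and 9 of 10 tested macrophage markers did (median -1.09); none passed the threshold. Of the 12 macrophage markers, 1 to 3 were at 0 in fibrous and 0 to 7 in bone libraries. Adgre1, Mrc1, C1qa and Fcgr1 were at 0 in at least 1 library of each tissue, and Csf1r and Cd68 in bone only. The part of white blood cells in the Hsd11b1 difference was not tested beyond the fit with leukocyte scores.

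**Figure D2:**
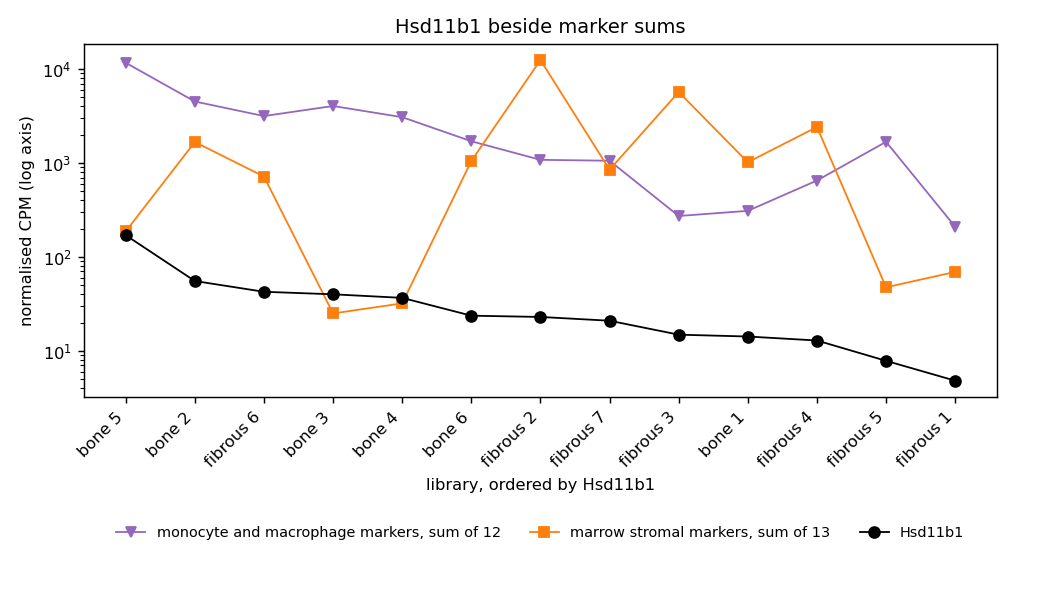
Normalised CPM (log axis) of Hsd11b1 and of the summed monocyte and macrophage markers and marrow stromal markers in each library, ordered by Hsd11b1. The macrophage sum is highest in the 5 libraries at the left, with 11690 CPM in bone 5, while the stromal sum follows no such order.

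Among the genes most like Hsd11b1 in rank over the 13 libraries were Adpgk, an ADP-dependent glucokinase (Spearman 0.95), and Cdc42se2, a small Cdc42 effector (0.94). Adpgk ran from 38.0 to 567 CPM. Lamb3, a laminin chain gene on the opposite strand within the Hsd11b1 locus, lay between 0 and 5.82 CPM and shares no exonic base with it.

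Partner enzymes of Hsd11b1 were present at low or uneven levels. H6pd, which supplies its NADPH, was at 0.185 to 46.1 CPM in fibrous and 0.129 to 54.4 CPM in bone libraries. It was under 1 CPM in fibrous 1, fibrous 5 and bone 3, where Hsd11b1 was 4.80, 7.82 and 40.0 CPM. Hsd11b2, the opposing enzyme, stayed at 0 to 1.79 CPM in fibrous and 0 to 5.35 CPM in bone libraries, below Hsd11b1 in every library. Of the 7 metabolism genes tested besides Hsd11b1 (steroid reductases, aldo-keto reductases and efflux pumps among them), none passed the threshold between fibrous and bone (median log2 fold change -0.27), as for all genes: edgeR's quasi-likelihood test called 0 of 13294 (0.0%), with 636 at an unadjusted p under 0.05, and DESeq2 called 169 (1.3%).

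Nr3c1 (ENSMUSG00000024431, chromosome 18, 39410545 to 39519421, minus strand) differed little between libraries. It had 44.1, 42.0, 44.2, 39.9, 24.6, 78.7 and 63.9 CPM in fibrous 1 to 7, against 68.4, 58.2, 45.1, 57.0, 78.5 and 54.1 CPM in bone 1 to 6. Means were 48.2 ± 17.7 CPM in fibrous and 60.2 ± 11.7 CPM in bone (SD, n = 7 and 6), and the log2 fold change was -0.35 (SE 0.21). Within L002 the groups did not overlap, with 24.6 to 44.2 CPM in 5 fibrous and 45.1 to 68.4 CPM in 4 bone libraries, a pattern in which 0.489% of all genes were lower in fibrous. In XY9274 the log2 fold change was 0.03, so the L002 order did not appear there, where both groups have 2 libraries. The test of that difference, the series by group interaction, gave 0.66 for Nr3c1 with a 95% interval from -0.27 to 1.59 (adjusted p = 1.00, edgeR); it called 0 of 13294 genes (0.0%; 292 at an unadjusted p under 0.05, and 25, or 0.192%, by DESeq2).

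The mineralocorticoid receptor gene Nr3c2, whose product also binds glucocorticoid, was at 0 to 5.36 CPM in fibrous and 0 to 0.193 CPM in bone libraries, far under Nr3c1. Receptor chaperones were abundant throughout. Hsp90ab1, a constitutive HSP90, averaged 948 ± 218 CPM in fibrous and 807 ± 330 CPM in bone, and Fkbp4, the HSP90 cochaperone that favours receptor transport, averaged 301 ± 23.8 and 313 ± 35.6 CPM (SD, n = 7 and 6). None of the 13 chaperone genes (median log2 fold change 0.07) and none of the 13 receptor partners and coregulators (median 0.47) passed the threshold, and the median of all genes was 0.03.

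Fkbp5 (ENSMUSG00000024222, chr17:28399094-28517527, minus strand), which encodes the cochaperone FKBP51 that lowers the receptor's hormone affinity, varied mainly among bone libraries. It had 20.8, 33.3, 27.3, 13.5, 21.8, 30.5 and 31.4 CPM in fibrous 1 to 7, against 41.4, 4.06, 10.2, 17.6, 91.7 and 43.0 CPM in bone 1 to 6. All fibrous values lay inside the bone range. Means were 25.5 ± 7.13 CPM in fibrous and 34.7 ± 32.2 CPM in bone (SD, n = 7 and 6), and the log2 fold change was -0.10 (SE 0.50). It was 0.30 within L002 and -1.19 within XY9274, where 30.5 and 31.4 CPM in fibrous stood below 43.0 and 91.7 CPM in bone, a separation that 10.3% of all genes showed in that direction. The interaction estimate for Fkbp5 was -1.47 with a 95% interval from -3.68 to 0.74 (edgeR adjusted p = 1.00).

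Tsc22d3 (ENSMUSG00000031431, chrX:140539528-140600659, minus strand) had 66.7, 110, 83.2, 52.2, 62.6, 159 and 114 CPM in fibrous 1 to 7, against 78.4, 71.6, 64.7, 61.4, 142 and 37.8 CPM in bone 1 to 6. Fibrous 6 and bone 5, both of XY9274, were the highest of their groups, and bone 6 of the same series was the lowest of all. Means were 92.5 ± 37.5 CPM in fibrous and 76.0 ± 35.1 CPM in bone (SD, n = 7 and 6), with a log2 fold change of 0.27 (SE 0.28).

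Sgk1 (ENSMUSG00000019970, chr10:21882184-21999903, plus strand), a kinase that promotes sodium transport and cell survival, had 42.5, 96.6, 37.2, 32.9, 45.5, 75.5 and 92.4 CPM in fibrous 1 to 7, against 54.3, 39.9, 51.4, 25.5, 79.5 and 14.0 CPM in bone 1 to 6. The 2 highest libraries were fibrous and the 2 lowest were bone, with full overlap between. Means were 60.4 ± 27.1 CPM in fibrous and 44.1 ± 23.2 CPM in bone (SD, n = 7 and 6), and the log2 fold change was 0.43 (SE 0.39), or 0.95 without the 5 libraries low in Lepr. Nedd4, a ubiquitin ligase of the family that the kinase acts on, averaged 366 ± 153 CPM in fibrous and 233 ± 165 CPM in bone, and none of the 9 tested partners and substrates passed the threshold (median 0.38).

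Per1 (ENSMUSG00000020893, chr11:69095217-69109960, plus strand), a repressor of the circadian clock that hormone and cyclic AMP both induce, had 12.2, 3.75, 4.30, 2.80, 0.554, 24.1 and 19.1 CPM in fibrous 1 to 7, against 9.93, 4.31, 0.516, 2.21, 41.2 and 4.04 CPM in bone 1 to 6. The highest libraries were bone 5, fibrous 6 and fibrous 7, all of XY9274, and the lowest were bone 3, fibrous 5 and bone 4, the 3 with Lin in their names. Means were 9.54 ± 9.10 CPM in fibrous and 10.4 ± 15.4 CPM in bone (SD, n = 7 and 6), and the log2 fold change was 0.08 (SE 0.78). Its sign changed with the library left out, from -0.46 to 0.62.

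**Figure D3:**
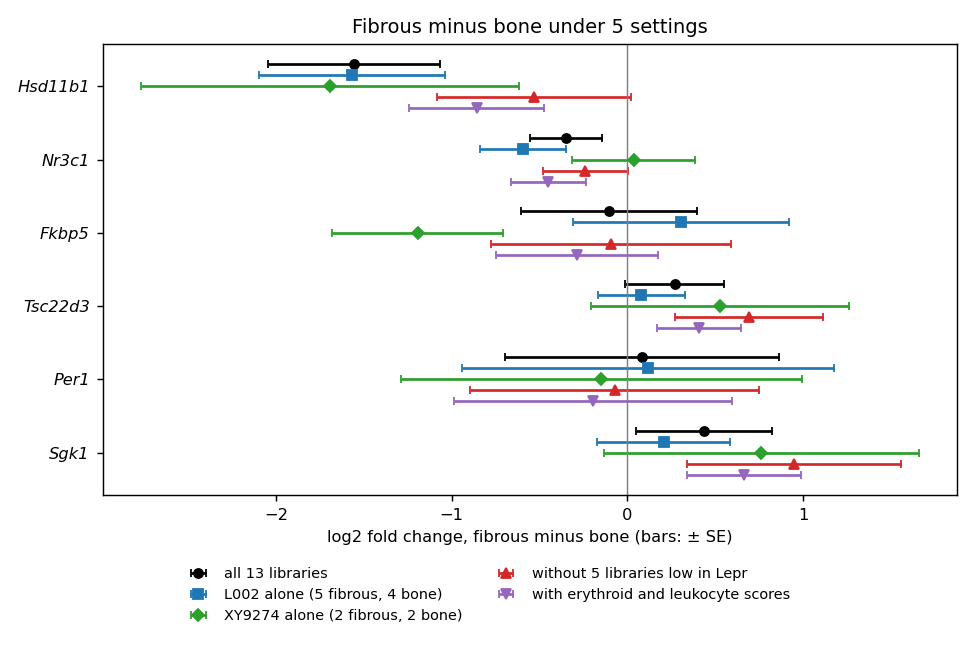
Log2 fold change, fibrous minus bone, of the 6 genes under 5 settings; points are estimates and bars ± SE. Hsd11b1 lies below 0 under each setting, from -1.69 in XY9274 alone to -0.53 without the 5 libraries low in Lepr, while the targets Tsc22d3 and Sgk1 lie above 0 and Fkbp5 and Per1 on both sides.

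Side by side, the fibrous minus bone estimates were -1.55 for the enzyme and -0.35 for the receptor, -0.10 for Fkbp5, and 0.27, 0.08 and 0.43 for Tsc22d3, Per1 and Sgk1, with those of Fkbp5, Per1 and Tsc22d3 no larger than their standard errors. Of 36 other glucocorticoid targets tested, 24 had point estimates above and 12 below 0 (median 0.35, against 0.03 over all genes), and edgeR called none, where DESeq2 called 3 higher (1.14% of all genes). The smallest p-values belonged to Pdk4, a kinase that turns off pyruvate oxidation (10.2 ± 10.2 CPM in fibrous, 0.382 ± 0.563 CPM in bone), to Mertk, a receptor for apoptotic cells (5.07 ± 4.30 and 0.672 ± 0.972 CPM), to Fbxo32, a muscle atrophy ubiquitin ligase (4.07 ± 3.26 and 1.00 ± 1.58 CPM), and to Anxa1, an anti-inflammatory lipid-binding protein (353 ± 203 and 870 ± 794 CPM). Each had an edgeR adjusted p of 0.873. Klf9, a transcription factor among the most regular targets in other tissues, averaged 25.1 ± 8.44 CPM in fibrous and 16.3 ± 9.07 CPM in bone, with a log2 fold change of 0.66 (SE 0.41, adjusted p = 0.873), and Dusp1, a phosphatase that shuts off MAP kinases, 533 ± 189 and 442 ± 104 CPM, with 0.23 (SE 0.24, adjusted p = 0.906).

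The set's ranks over the 13 libraries were uneven. Tsc22d3 ran closest to Sgk1 (Spearman 0.81, and 0.58 over the 9 L002 libraries), Per1 ran with Tsc22d3 (0.73 and 0.52) and with Nr3c1 (0.70 and 0.35), and Hsd11b1 ran with Nr3c1 (0.66 and 0.58). Hsd11b1 had 0.07 with Fkbp5, and -0.45 over L002 alone. Its coefficients with Sgk1, Per1 and Tsc22d3 were 0.16, 0.24 and 0.35, and -0.03, -0.27 and 0.18 over L002 alone. These are descriptions over libraries that share the name series and cell content, with no test.

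In L002, LepR is part of most plus names and of no Lin name. The division into Lin-named and plus-named libraries did not enter the choice of the genes. It separated many other genes: edgeR called 1097 of 13450 (8.16%), 424 higher (3.15%) and 673 lower (5.0%) in Lin-named libraries, with a median of -0.21 over all genes. Lepr, at 0.602 to 0.739 CPM in the 3 Lin-named and 46.7 to 804 CPM in the 5 plus-named libraries, fell by 8.15 on the log2 scale (SE 0.92, edgeR adjusted p = 0.0129). Marrow stromal markers fell in 7 of 13 cases (median -6.07; summed level 25.0 to 47.5 CPM in Lin-named and 1018 to 12503 CPM in plus-named libraries), and 6 of 11 erythroid markers rose (median 1.5).

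Against that background none of the 6 glucocorticoid genes passed the threshold in edgeR. All 6 point estimates were below 0, and 5 of them lay between -0.53 and -0.32. Hsd11b1 was at 7.82, 40.0 and 36.6 CPM in Lin-named fibrous 5, bone 3 and bone 4, against 22.9, 14.8, 12.9, 14.2 and 55.4 CPM in plus-named fibrous 2, 3 and 4 and bone 1 and 2. Its log2 fold change was -0.37 (95% interval -1.69 to 0.94, adjusted p = 0.708), and its sign turned without fibrous 5 (0.13), without bone 2 (0.08) and without the tissue term (0.20). Libraries with hardly any Lepr transcript thus still held Hsd11b1 within or near the range of the plus-named libraries, and the interval of the difference is wide.

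For Nr3c1 the range was 24.6 to 57.0 CPM in Lin-named and 39.9 to 68.4 CPM in plus-named libraries (-0.53, 95% interval -1.07 to 0.00107, adjusted p = 0.181). For Fkbp5 it was 10.2 to 21.8 and 4.06 to 41.4 CPM (-0.52, -2.23 to 1.19, adjusted p = 0.688). Tsc22d3 was at 61.4 to 64.7 CPM in Lin-named and 52.2 to 110 CPM in plus-named libraries (-0.34, -0.96 to 0.28, adjusted p = 0.457), and Sgk1 at 25.5 to 51.4 and 32.9 to 96.6 CPM (-0.32, -1.36 to 0.71, adjusted p = 0.680). The intervals, all from edgeR, exclude a fall of the size seen for Lepr but allow one of more than 1 log2 unit for each gene other than Tsc22d3.

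Per1 was the exception in size. It had 0.554, 0.516 and 2.21 CPM in Lin-named fibrous 5, bone 3 and bone 4, against 3.75, 4.30, 2.80, 9.93 and 4.31 CPM in plus-named fibrous 2, 3 and 4 and bone 1 and 2. The groups did not overlap, in a comparison where 13.3% of genes were lower in Lin-named libraries without overlap. The log2 fold change was -2.55 (SE 0.99, 95% interval -4.85 to -0.25), which missed the threshold in edgeR (adjusted p = 0.144) and passed it in DESeq2 (adjusted p = 0.0147, where 27.2% of genes were called). Immediate early gene sums ran from 1119 to 1887 CPM in Lin-named and from 1357 to 3470 CPM in plus-named libraries, and erythroid sums from 252325 to 614870 and from 35547 to 89086 CPM. Their part in the Per1 difference was not tested.

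**Figure D4:**
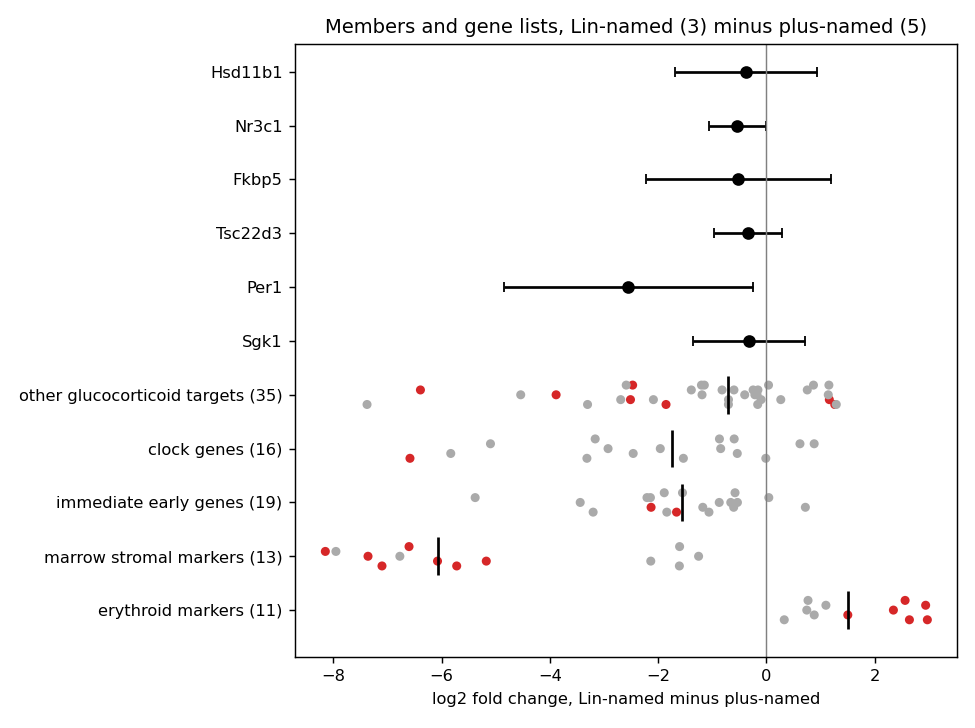
Log2 fold change, 3 Lin-named minus 5 plus-named libraries. The upper points are the 6 genes with 95% intervals, and below them each dot is a gene of a list, red where the edgeR adjusted p is under 0.05, with a bar at the list median. The intervals of 5 of the 6 genes include 0 and that of Per1 does not, while stromal markers sit around -6.07 and erythroid markers around 1.5.

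Pathway genes around the set moved in both directions in the same comparison. Among 35 other glucocorticoid targets, 2 rose and 5 fell (median -0.70), where 3.15% of all genes rose, 5.0% fell and the median was -0.21. Sesn1, a stress-induced regulator of TORC1, rose (104 ± 8.18 CPM in Lin-named, 50.4 ± 14.0 CPM in plus-named libraries; log2 fold change 1.16, adjusted p = 0.0250), as did Glul, glutamine synthetase (265 ± 100 and 99.7 ± 21.6 CPM; 1.26, adjusted p = 0.0326). Errfi1, a feedback inhibitor of EGF receptor, fell (4.23 ± 3.11 and 75.0 ± 33.4 CPM; -3.88, adjusted p = 0.0252), as did Tgm2, a transglutaminase (30.0 ± 11.3 and 105 ± 16.3 CPM; -1.85, adjusted p = 0.0231), and the cell cycle inhibitor Cdkn1c (5.68 ± 3.14 and 31.3 ± 10.8 CPM; -2.47, adjusted p = 0.0326), with Cdkn1a and Map3k6 the others (SD, n = 3 and 5). Dusp1 had 424 ± 90.7 and 421 ± 79.7 CPM. Without single libraries the targets called numbered 0 to 2 higher and 0 to 5 lower, with 0 in either direction without fibrous 2 or bone 1.

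Of 11 genes known to be repressed by glucocorticoid, 4 fell, namely Col1a1, Mmp13, Bglap2 and Bglap (median -2.17). Col1a1, Bglap2 and Bglap are also bone matrix genes. Bglap, which encodes osteocalcin, averaged 146 ± 47.7 CPM in Lin-named and 626 ± 216 CPM in plus-named libraries. Fibroblast and osteoblast markers, a list that also holds Col1a1 and Bglap, fell in 8 of 12 cases. The part of these markers in the 4 repressed genes that fell was not tested. Without single libraries 0 to 4 of the 11 passed, with 0 without bone 3 and 1 without fibrous 3 or bone 4. Among 13 chaperones, Hsp90ab1 fell (458 ± 117 and 953 ± 127 CPM; -1.08, adjusted p = 0.0285) and Ptges3, the p23 cochaperone, rose (134 ± 10.9 and 82.4 ± 8.27 CPM; 0.69, adjusted p = 0.0410). With 13 genes in each list, 1 call is near the shares of all genes that rose (3.15%) and fell (5.0%), for the chaperones in either direction and for the coregulators. The corepressor Ncor1 was the 1 coregulator of 13 that fell (-1.91, adjusted p = 0.0387), Nedd4 the 1 of 9 in the Sgk1 list (-2.40, adjusted p = 0.0195), and none of 7 metabolism genes passed. Among 17 relatives of the set, Fkbp9, Fkbp10 and Tsc22d1 fell (-3.43, -4.21 and -1.10), whereas Sgk3, a second SGK kinase, had 143 ± 18.7 CPM in Lin-named and 93.7 ± 31.2 CPM in plus-named libraries (0.59, adjusted p = 0.240). No chaperone passed without fibrous 2, fibrous 3 or any 1 of the 4 bone libraries, 1 coregulator passed without fibrous 5 or bone 1 and none without any 1 of the other 6 libraries, no relative passed without bone 3, and no gene of the Sgk1 list passed without fibrous 3, bone 3 or bone 4. Every p-value here is edgeR's, with standard deviations over 3 and 5 libraries.

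The name series were the second division not used to choose the genes. All 6 point estimates of XY9274 minus L002 were above 0, and none passed the threshold in edgeR, which called 287 of 13294 genes (2.16%), 251 of them higher (1.89%). This comparison shares the L002 libraries with the preceding one. Per1 had the largest estimate, 2.30 (SE 0.80, adjusted p = 0.134), with 24.1, 19.1, 41.2 and 4.04 CPM in XY9274 fibrous 6 and 7 and bone 5 and 6 and a range of 0.516 to 12.2 CPM in the 9 L002 libraries. Bone 6 lay within the L002 range, and without bone 5 the estimate was 1.6 (adjusted p = 0.533). DESeq2 and limma-voom put the Per1 difference past the threshold (adjusted p = 0.0337 and 0.0111), and they called 15.9% and 21.5% of all genes.

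Hsd11b1 followed with 1.37 (SE 0.50, adjusted p = 0.145), at 42.5, 20.9, 170 and 23.7 CPM in XY9274 and 4.80 to 55.4 CPM in L002 libraries. Fkbp5 had 1.19 (SE 0.52, adjusted p = 0.202), with 30.5 to 91.7 CPM in XY9274 and 4.06 to 41.4 CPM in L002. Tsc22d3 had 0.64 (SE 0.30, adjusted p = 0.225), Nr3c1 0.57 (SE 0.22, adjusted p = 0.155) and Sgk1 0.45 (SE 0.41, adjusted p = 0.546), again by edgeR. For Nr3c1 the values were 54.1 to 78.7 CPM in XY9274 and 24.6 to 68.4 CPM in L002, and limma-voom alone passed it (adjusted p = 0.0139). The 6 estimates kept their sign in each of 18 alternative settings, though without bone 5 those of Hsd11b1, Fkbp5, Tsc22d3 and Sgk1 were 0.79, 0.73, 0.37 and 0.12. Such settings refit largely the same libraries, so the constant sign is not independent support. All 12 neutrophil and 12 leukocyte markers also had estimates above 0 (medians 1.87 and 1.40, none called), and their part was not tested.

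Genes of acute transcription differed with the series. In this comparison edgeR called 1.89% of all genes higher. Immediate early and heat shock genes had estimates above 0 in 19 of 19 cases (median 1.79, against 0.05 over all genes), and 5 rose: Nr4a1, Fosb, Hspa1b, Zfp36 and Klf6. Nr4a1, an orphan nuclear receptor induced within minutes of stimulation, averaged 374 ± 470 CPM in XY9274 and 20.4 ± 10.4 CPM in L002 (SD, n = 4 and 9; log2 fold change 4.05, edgeR adjusted p = 0.00847). Coregulators were above 0 in 13 of 13 cases (median 1.77), with Med14, a Mediator subunit that binds the receptor, at 61.5 ± 16.6 and 18.1 ± 7.77 CPM (1.77, adjusted p = 0.0190) and Tle3, a corepressor, at 29.7 ± 16.4 and 2.74 ± 2.23 CPM (4.29, adjusted p = 0.0448) past the threshold. Those calls depended on few libraries: none of these early genes passed without bone 5 or without the 3 Lin-named libraries, no coregulator passed without bone 5 or fibrous 6, and the early genes called numbered 1 without fibrous 2, 4, 6 or 7 or bone 4 and 10 without bone 1 or bone 6. None of 36 other glucocorticoid targets passed in edgeR (median 0.60), where DESeq2 called 5 higher and 2 lower (8.46% and 7.41% of all genes). Among 16 clock genes none passed, and Per3 and Per2, the relatives of Per1, had the smallest p-values (2.65 and 3.33, adjusted p = 0.174 and 0.221).

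Per1 ran with the immediate early genes library by library. The 5 libraries highest in Per1 (bone 5, fibrous 6, fibrous 7, fibrous 1 and bone 1) were the 5 highest in the summed level of 20 such genes, which reached 7668 CPM in bone 5 and 7095 CPM in fibrous 7 and was 1119 CPM in fibrous 5. The Spearman coefficient over the 13 libraries was 0.87. Other sums came near it, so the likeness was not particular to the immediate early genes. Per1 had 0.85 with the receptor partners and coregulators, 0.82 with the clock genes and 0.82 with osteoclast markers. With the receptor chaperones it had 0.76, with the erythroid sum -0.79 and with total counts 0.75. The signs were not particular to Per1. With the erythroid sum, Tsc22d3 had -0.84, Sgk1 -0.68, Fkbp5 -0.63, Nr3c1 -0.55 and Hsd11b1 -0.29. With the immediate early sum, the other members ran from 0.37 (Hsd11b1) to 0.78 (Nr3c1). With total counts they ran from 0.21 (Hsd11b1) to 0.60 (Tsc22d3). Among the genes most like Per1 were Btbd7, a BTB domain protein (0.98), and Trrap, a scaffold of histone acetyltransferases (0.97). For the other members they were Shmt1, Dock11 and Evi2a for Nr3c1 (0.88, 0.88 and 0.87), Cd244a, Ids and Scml2 for Fkbp5 (0.90 each), Ahnak, Cxxc5 and Hs3st3b1 for Tsc22d3 (0.92, 0.91 and 0.90) and Phf20, Tspan2 and Hsf1 for Sgk1 (0.86, 0.86 and 0.85). No other member, and no other listed glucocorticoid target, was among these nearest genes. Only 3 of 13294 genes were kept per member, so that absence does not show whether the set moves with other targets. With the summed level of 38 other glucocorticoid targets, Hsd11b1 had a Spearman coefficient of 0.74 over the 13 libraries. Sgk1 had 0.59, Tsc22d3 0.57, Nr3c1 0.55, Per1 0.37 and Fkbp5 -0.05. These too are descriptions of libraries that share depth and cell content, with no test.

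**Figure D5:**
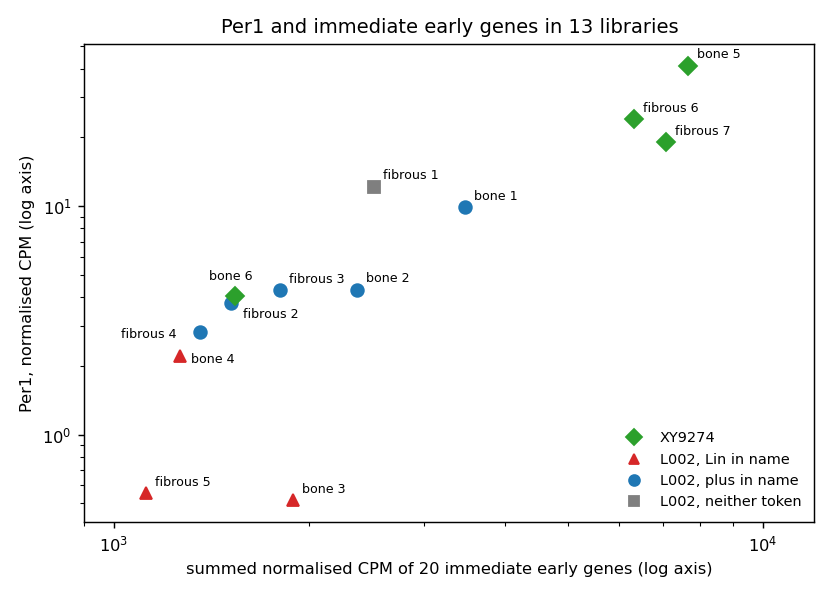
Per1 (normalised CPM, log axis) against the summed normalised CPM of 20 immediate early and heat shock genes (log axis), 1 point per library, with symbols for name series and token. Bone 5, fibrous 6 and fibrous 7 stand at the upper right, and the 3 Lin-named libraries have the lowest Per1.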

How the data were processed

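RNA of sorted cells was measured in 13 libraries (7 fibrous, 6 bone). The authors deposited whole-number counts per Ensembl gene in 1 matrix, with no normalisation per the file's values. Per the submitters' processing notes, edgeR was used (version not stated), and 2 builds are listed, mm10 and hg38, without saying for what. The sources used here do not name the aligner, the counter or the use of strand. All 23211 identifiers matched GENCODE release 21 of the mouse series (M21, GRCm38), which gave symbols, positions and exon lengths.

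Counts were fitted with edgeR 4.0.16 (R 4.3.3; TMM, filterByExpr, robust dispersions, quasi-likelihood F test), Benjamini-Hochberg adjusted over all genes tested, with a threshold of 0.05. Terms were name series and group over 13 libraries, or name token and group over the 8 L002 libraries with Lin or plus in their names. Standard errors come from the fold change and F (log2 fold change over root F). Rank coefficients between genes over the 13 libraries used log2 CPM with a prior count of 2. Those within L002 alone, with marker sums and with total counts used normalised CPM. Alternative tools were limma 3.58.1 (voom, weighted by library quality) and DESeq2 1.42.0. Leaving out single libraries, other scalings and filters, each series alone and marker scores were further alternatives. The scripts were tested on simulated data.

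The 6 genes and all 20 lists were chosen with earlier results of these data known. Named genes were the 6 themselves, up to 4 per pathway list by smallest p in each of the fibrous and Lin-named comparisons, cell type markers by level, and 3 genes per member by rank likeness. Some genes that this rule names are not reported here. Dusp1, Klf9, Fkbp4, Nr3c2, H6pd, Sgk3, Per2, Per3, Lamb3, Cdkn1c, Glul and Cdkn1a, and the genes of the XY9274 comparison, were named after their values were seen. Within L002, bone 4 shares a name token with bone 2, and fibrous 5 with fibrous 2, and the labels do not say that such pairs come from 1 animal.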

Additional observations from a re-analysis of the deposited data

Results flagged for a closer look

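Hsd11b1 was 170 CPM in bone 5, far from the other 5 bone libraries. The gap to the next of them was 0.736 of the whole range of the group, over the critical value of 0.625 for 6 samples. Per1 was 41.2 CPM in the same library, with a gap of 0.768 of the range. These were 2 of the 12 combinations of gene and tissue group examined. A rate of about 1 in 20 by chance holds only for normally distributed values, and these were CPM without a log. Both cases are the same library, and Hsd11b1 was chosen for its fold change between the tissues, so they are not independent results. Bone 5 was also the highest bone library for each other gene of the set, with gaps under the critical value. These gaps were 0.610 of the range for Tsc22d3, 0.555 for Fkbp5, 0.385 for Sgk1 and 0.303 for Nr3c1. Bone 5 belongs to XY9274, had 2.42 CPM of Lepr, the highest macrophage, neutrophil and leukocyte marker sums and the highest immediate early gene sum of the 13 libraries. Without bone 5 the bone mean was 34.0 ± 15.8 CPM for Hsd11b1 and 4.20 ± 3.55 CPM for Per1 (SD, n = 5).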

How the results depend on the processing

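The fibrous minus bone sign held in each of 23 alternatives for Hsd11b1, Tsc22d3 and Sgk1, in 22 for Nr3c1, 18 for Fkbp5 and 14 for Per1. Hsd11b1 was chosen on this comparison, so its constant sign is a description and not a test. The alternatives refit largely the same libraries, so a constant sign is not independent support for any gene. For Tsc22d3 and Sgk1 the main estimates were close in size to their standard errors. Calls over all genes depended on the tool: between fibrous and bone DESeq2 called 169 against 0 in edgeR, and for the interaction 25 against 0. Between Lin-named and plus-named libraries, where edgeR called 1097, DESeq2 called 3493 and limma-voom 566, counting fibrous 1 as plus-named gave 354, and leaving out single libraries gave 138 to 992 (138 without fibrous 3, 144 without bone 3 or bone 4, 264 without fibrous 2, 368 without bone 1 and 470 without bone 2). Between XY9274 and L002 DESeq2 called 1982, limma-voom 2864 and edgeR 287, with 87 to 470 when single libraries were left out (87 without fibrous 6, 90 without bone 5, 137 without fibrous 7, 151 without fibrous 3, 179 without bone 4, 184 without fibrous 2 and 470 without bone 1). Sign changes in the Lin-named comparison were seen for Hsd11b1 without fibrous 5 (0.13), without bone 2 (0.08) and without the tissue term (0.20), and for Fkbp5 without bone 1 (0.72). Leaving out single libraries gave -0.85 to 0.13 for Hsd11b1 and -0.87 to 0.72 for Fkbp5. The cause was not tested. Pairing by shared name token as a replicate block leaves 4 libraries, and the block gave 15 calls and 0.72 for Fkbp5, where the same 4 libraries with no block, an alternative chosen after seeing the data, gave 0 calls and 0.040 for Fkbp5. No paired analysis was possible because fibrous and bone names share a single number, 4, across name series (fibrous 6 with bone 2 and bone 4), and the labels give it no meaning; this concerns fibrous against bone. Depth limits Per1 most, with 8 to 22 counts in the Lin-named libraries.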
